A study of Homo sapiens with 6 samples.

Results

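The IFIT and IFI interferon-induced genes are 9 genes of the antiviral response, IFIT1, IFIT2, IFIT3, IFIT5, IFI6, IFI27, IFI35, IFI44 and IFI44L. They were taken as the probe sets whose array annotation carried one of these symbols, which gave 9 probe sets, 1 per gene, among 18417 genes with a named probe set. Their level was read on 6 arrays of 3 established human uveal melanoma lines, named 92.1, Mel 270 and Mel 290. Uveal melanoma is a tumour of the pigment cells of the eye. In the co-culture group each line grew for 64 h under a membrane insert with pores of 0.4 µm that held 1500000 T cells per well in 3 ml. The T cells came from the blood of healthy volunteers and had been activated with beads against CD3 and CD28, so soluble factors could pass to the melanoma cells and the T cells themselves stayed behind the membrane. In the control group each line grew alone for 64 h. Both groups were kept in the same serum-free medium, X-VIVO 15, after 80000 cells of 92.1 or 100000 cells of Mel 270 or Mel 290 had been plated. There was 1 array per line and condition, so the 3 lines are the replicates and no line had a repeat culture. The groups stand for 3 tumour lines in culture.

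Interferons bind receptors on the cell surface and activate JAK kinases, which switch on transcription factors. Type I and type III interferons act mainly through ISGF3, a complex that holds IRF9 and binds the interferon-stimulated response element (ISRE). Interferon-gamma, a product of activated T cells, acts mainly through the gamma-activated site (GAS) and through IRF1, which can also bind ISRE sequences. IFIT proteins are built from tetratricopeptide repeats and bind viral RNA: IFIT1 recognises caps that lack host methylation, IFIT3 stabilises IFIT1, IFIT2 joins the same complexes, and IFIT5 binds RNA with a triphosphate end. IFI6 and IFI27 are small hydrophobic membrane proteins of one family, found at the endoplasmic reticulum and at mitochondria. IFI35 is a cytoplasmic protein that pairs with NMI, and IFI44 and IFI44L are paralogs encoded side by side.

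The promoter sequences are shown because the genes were taken by symbol and not by sequence. The ISRE is an element through which many interferon-induced genes are known to respond, and the GAS is another. RefSeq windows of 300 bases on assembly GRCh38.p14, reaching from 250 bases before to 50 after an annotated start, were found for 8 of the 9 genes, with a second start for IFIT3, IFI27 and IFI44. IFIT2 had no entry. The ISRE core was searched on both strands as GAAA, any 2 bases and GAAA, which is TTTC, any 2 bases and TTTC when read from the other strand. The GAS core was searched as TTC, any 3 bases and GAA, which is the same pattern on both strands. Of the 8 genes, 7 held an ISRE core, against 4.38% of all 27305 genes with a window. At least 2 cores stood in 1 window for 6 of the 8, against 0.311% of all genes, and IFI6 and IFIT5 had 3, against 0.0476% of all genes. A GAS core stood in 2 of the 8, IFI27 and IFI35, against 9.38% of all genes. Among a wider list of other interferon-stimulated genes, 22 of 35 with a window held an ISRE core and 10 of 35 a GAS core. These matches are a description of the letters and not of binding.

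The windows of 6 genes follow, read 5′ to 3′ on the strand of the gene, with ISRE and GAS cores in capitals. IFIT1 lies at chr10:89392373-89392672 and the first window of IFIT3 at chr10:89327747-89328046, both on the plus strand, and they show a pair of ISRE cores each. IFI6 lies at chr1:27672143-27672442 on the minus strand and shows the 3 cores. IFI27 lies at chr14:94110486-94110785 on the plus strand in its first window, IFI35 at chr17:43006534-43006833 on the plus strand, and IFI44L at chr1:78620198-78620497 on the plus strand. IFI27 is shown because its GAS core overlaps both of its ISRE cores, IFI35 because it alone had no ISRE core, and IFI44L because its window is largely a repeat.
IFIT1: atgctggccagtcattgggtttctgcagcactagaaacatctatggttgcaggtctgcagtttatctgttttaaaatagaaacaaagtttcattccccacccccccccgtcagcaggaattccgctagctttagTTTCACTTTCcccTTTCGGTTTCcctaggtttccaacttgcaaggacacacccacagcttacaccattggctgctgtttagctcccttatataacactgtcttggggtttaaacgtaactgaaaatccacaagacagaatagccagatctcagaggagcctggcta
IFIT3: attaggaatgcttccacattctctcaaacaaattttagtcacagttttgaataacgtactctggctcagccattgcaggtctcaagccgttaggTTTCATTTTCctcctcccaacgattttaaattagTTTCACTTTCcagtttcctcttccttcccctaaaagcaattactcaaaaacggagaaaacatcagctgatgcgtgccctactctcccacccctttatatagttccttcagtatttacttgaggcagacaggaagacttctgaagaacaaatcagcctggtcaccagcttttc
IFI6: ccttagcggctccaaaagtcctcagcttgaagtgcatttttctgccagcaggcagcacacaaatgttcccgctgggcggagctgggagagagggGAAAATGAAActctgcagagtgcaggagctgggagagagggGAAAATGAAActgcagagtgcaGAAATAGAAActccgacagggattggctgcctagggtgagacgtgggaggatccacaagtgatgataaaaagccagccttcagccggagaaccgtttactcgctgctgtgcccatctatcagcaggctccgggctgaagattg
IFI27: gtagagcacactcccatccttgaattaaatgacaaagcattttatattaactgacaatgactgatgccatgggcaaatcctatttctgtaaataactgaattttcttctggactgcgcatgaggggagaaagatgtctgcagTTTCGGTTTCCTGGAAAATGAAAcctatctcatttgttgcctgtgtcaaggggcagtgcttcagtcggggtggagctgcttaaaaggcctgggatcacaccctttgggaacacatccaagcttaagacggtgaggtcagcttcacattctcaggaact
IFI35: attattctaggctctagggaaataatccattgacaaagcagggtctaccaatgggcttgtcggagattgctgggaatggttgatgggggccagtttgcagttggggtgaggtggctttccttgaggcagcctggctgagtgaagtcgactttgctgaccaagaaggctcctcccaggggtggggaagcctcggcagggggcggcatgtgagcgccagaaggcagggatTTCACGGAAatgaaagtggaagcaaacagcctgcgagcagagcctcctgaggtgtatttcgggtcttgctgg
IFI44L: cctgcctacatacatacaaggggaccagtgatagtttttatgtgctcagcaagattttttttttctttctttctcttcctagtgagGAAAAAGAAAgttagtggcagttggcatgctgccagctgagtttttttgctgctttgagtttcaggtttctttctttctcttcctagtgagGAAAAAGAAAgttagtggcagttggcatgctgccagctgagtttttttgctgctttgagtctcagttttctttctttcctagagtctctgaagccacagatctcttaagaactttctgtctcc

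In IFIT1 the 2 cores began 116 and 103 bases before the start, and in the first IFIT3 window 156 and 122 bases before it. In IFI27 the cores TTTCGGTTTC and GAAAATGAAA began 108 and 95 bases before the first start, and the GAS core TTCCTGGAA between them, at 101 bases, shared letters with each. In IFI35 the single match was the GAS core TTCACGGAA, 22 bases before the start. The IFI6 window held an exact repeat of 29 bases and the IFI44L window one of 85 bases, and each copy carried an ISRE core, which in IFI44L was GAAAAAGAAA both times. In IFIT5 all 3 cores lay close to the start, beginning 45, 19 and 4 bases before it. IFI44, next to IFI44L, had 1 core.

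**Figure D1:**
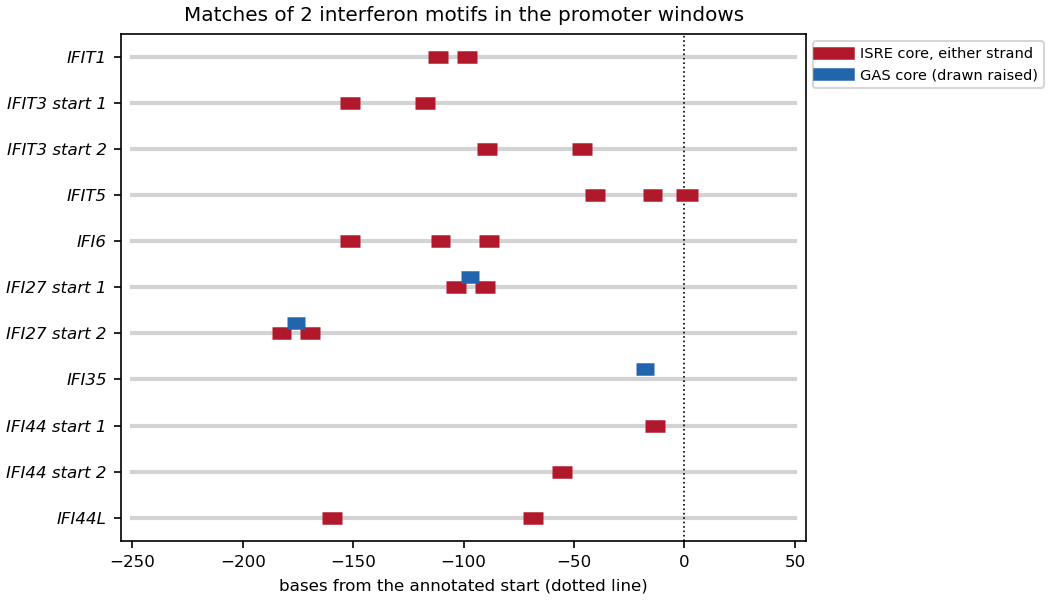
Positions of ISRE cores (red, either strand) and GAS cores (blue, drawn raised) in the promoter windows, in bases from the annotated start. The 7 genes with an ISRE core have them within 187 bases before a start, and IFI35 has a GAS core alone.

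All 9 genes had a higher level with T cells than alone in each of the 3 lines, as did 16.2% of all tested genes, and by at least 2-fold each time. In limma 7 of the 9 rose at an adjusted p under 0.05: IFI44L, IFIT2, IFI44, IFIT3, IFI27, IFIT5 and IFIT1. Of all 13808 tested genes 0.413% passed in that direction and 0.0362% in the other, in which none of the 9 did. IFI6 and IFI35 did not pass. The mean change over the 3 lines, in log2 signal, was between 1.85 (3.61-fold) and 5.72 (52.7-fold), with a median of 3.50 over the 9 genes against -0.04 over all tested genes. All 3 co-culture values lay above all 3 values alone for 9 of 9 genes, against 4.03% of tested genes. The count of 7 depends on the lines and settings: without 92.1 4 of the 9 passed, whereas without Mel 270 all 9 passed. In a fit without the cell line 1 passed, and after cyclic loess normalization 4.

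Levels are log2 signals as deposited, and those of different probe sets are not compared with each other. The filter level of 5.80 is the 25th percentile of annotated probe sets, and a gene's mean had to reach it to be tested. Levels under it were taken as mostly background, and no detection measure was used. All 9 genes reached 5.80 in their mean over the 6 arrays, which includes the co-cultures, so none was left out. For IFIT2, IFIT3, IFI44 and IFI44L the mean alone was below 5.80 (5.23, 5.69, 4.46 and 5.39). They reached the filter level through their co-culture values. With no filter on low values 6 of the 9 passed in limma, these genes among them. No co-culture value of the 9 lay below 5.80, but 6 genes had at least 1 value alone below it. IFIT2 and IFI44 had all 3 below it, and the fold changes of these 6 genes are imprecise.

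**Figure D2:**
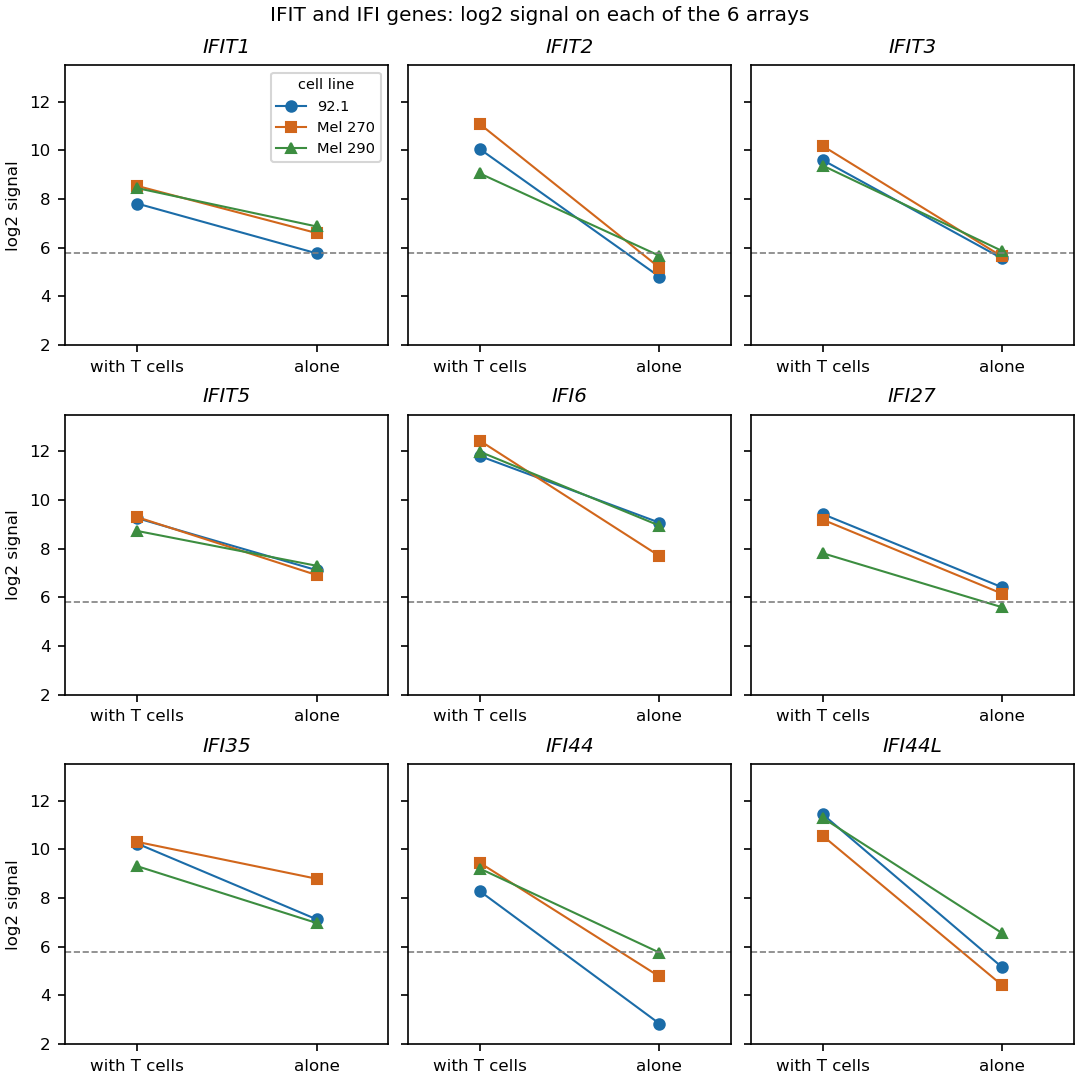
Log2 signal of the 9 genes on the 6 arrays, 1 panel per gene, with T cells on the left and alone on the right of each panel and 1 coloured line per cell line. The dashed line is the filter level of 5.80, and every coloured line slopes down from co-culture to growth alone.

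Among the IFIT genes, IFIT2 and IFIT3 had the larger mean changes. IFIT2 (probe set 7929047) had 10.06 in 92.1, 11.08 in Mel 270 and 9.05 in Mel 290 with T cells, against 4.82, 5.19 and 5.67 in the same lines alone. The groups were far apart, and Mel 290 was the lowest of the co-cultures and the highest alone. All 3 values alone lay under the filter level, and whether their order reflects expression or background was not tested. IFIT2 rose by 4.84 ± 1.30 (SD, n = 3 lines, 28.6-fold, 95% interval 3.59 to 6.08, adjusted p = 0.042 in limma). With values under 5.80 raised to it the rise was 19.2-fold (adjusted p = 0.039), and without 92.1 IFIT2 did not pass (4.63, adjusted p = 0.093). It passed in 6 of 11 alternative settings.

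IFIT3 (probe set 7929052) had 9.61, 10.19 and 9.38 in 92.1, Mel 270 and Mel 290 with T cells, against 5.57, 5.64 and 5.87 alone. The values alone lay within 0.31 of each other, the narrowest range alone of the 9 genes. IFIT3 rose by 4.03 ± 0.52 (16.4-fold, 95% interval 3.46 to 4.60, adjusted p = 0.0078 in limma). It was the only one of the 9 that also passed in the fit without the cell line (adjusted p = 0.0084) and in each of the other settings that were run.

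IFIT1 and IFIT5 had smaller mean changes. IFIT1 (probe set 7929065) had 7.82, 8.54 and 8.45 in 92.1, Mel 270 and Mel 290 with T cells, against 5.77, 6.61 and 6.88 alone, with the lowest value of each group in 92.1. It rose by 1.85 ± 0.25 (3.61-fold, 95% interval 1.47 to 2.23, adjusted p = 0.022 in limma), and the 3 lines differed little in this change, from 1.58 in Mel 290 to 2.04 in 92.1. Without 92.1 the adjusted p was 0.079 (change 1.76).

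IFIT5 (probe set 7929072) had 9.25, 9.29 and 8.73 in 92.1, Mel 270 and Mel 290 with T cells, against 7.12, 6.92 and 7.30 alone. Both groups were tight, and no value was near the filter level. IFIT5 rose by 1.98 ± 0.49 (3.95-fold, 95% interval 1.43 to 2.53) with an adjusted p of 0.0499 in limma, just inside the threshold. IFIT5 passed in 4 of 11 alternative settings, and the adjusted p reached 0.12 without 92.1 (change 1.91).

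The difference within the IFIT family was seen in each line. The change of IFIT2 exceeded that of IFIT1 by 3.19, 3.95 and 1.80 in 92.1, Mel 270 and Mel 290, and that of IFIT3 exceeded IFIT1 by 2.00, 2.61 and 1.93. With low values raised to 5.80 the mean differences were 2.42 and 2.06, each still positive in 3 of 3 lines. IFIT5 and IFIT1 had nearly the same change, with a difference of 0.13 ± 0.30 (SD, n = 3 lines) and no common sign. The change of IFIT2 exceeded that of IFIT3 in 92.1 and Mel 270 but not in Mel 290, where the difference was -0.13. These differences between genes were not tested. Paralogs can bind each other's probes, which makes the values of single IFIT genes uncertain.

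IFI6 and IFI27 belong to one family of membrane proteins. IFI6 (probe set 7914127) had 11.80, 12.43 and 11.98 in 92.1, Mel 270 and Mel 290 with T cells, against 9.07, 7.70 and 8.95 alone. It was well above the filter level in every culture, and Mel 270 was the lowest line alone and the highest with T cells. The change was 3.50 ± 1.08 (11.3-fold, 95% interval 2.46 to 4.54) and did not pass over all genes (adjusted p = 0.056 in limma), with 2.73 in 92.1, 4.73 in Mel 270 and 3.04 in Mel 290. Without Mel 270 it was 2.88 and passed (adjusted p = 0.0045).

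IFI27 (probe set 7976443) had 9.42, 9.19 and 7.81 in 92.1, Mel 270 and Mel 290 with T cells, against 6.41, 6.15 and 5.59 alone. The order of the 3 lines was the same in both conditions, with Mel 290 lowest. IFI27 rose by 2.76 ± 0.46 (6.76-fold, 95% interval 2.23 to 3.28, adjusted p = 0.016 in limma), and it also passed without each of the lines.

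IFI35 was the gene with the smallest change in Mel 270. It (probe set 8007446) had 10.24, 10.31 and 9.31 in 92.1, Mel 270 and Mel 290 with T cells, against 7.13, 8.80 and 6.98 alone. Mel 270 was the highest line alone, and the gap between the lowest co-culture and the highest value alone was 0.52, the smallest of the 9. The change was 2.32 ± 0.80 (4.99-fold, 95% interval 1.52 to 3.12) and did not pass over all genes (adjusted p = 0.067 in limma). It was 3.11 in 92.1, 1.51 in Mel 270 and 2.33 in Mel 290, and without Mel 270 it passed (2.72, adjusted p = 0.012). Since each line had 1 array per condition, the difference between lines was not tested.

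IFI44L had the highest mean change of the 9 and rank 7 among all tested genes. IFI44L (probe set 7902541) had 11.45, 10.56 and 11.30 in 92.1, Mel 270 and Mel 290 with T cells, against 5.16, 4.43 and 6.57 alone. The groups were far apart, and Mel 270 was lowest in both conditions. Alone, Mel 270 and 92.1 lay under the filter level, and whether their order reflects expression or background was not tested. IFI44L rose by 5.72 ± 0.86 (52.7-fold, 95% interval 4.87 to 6.57, adjusted p = 0.0083 in limma). With low values raised to 5.80 the rise was 33.1-fold (adjusted p = 0.0045).

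IFI44 (probe set 7902553) had 8.28, 9.45 and 9.21 in 92.1, Mel 270 and Mel 290 with T cells, against 2.85, 4.78 and 5.76 alone. All 3 values alone lay under the filter level and spanned 2.92, the widest range alone of the 9 genes. Whether the order of the lines alone reflects expression or background was not tested. IFI44 rose by 4.52 ± 1.00 (22.9-fold, 95% interval 3.54 to 5.49, adjusted p = 0.025 in limma). With low values raised to 5.80 the rise was 9.08-fold (adjusted p = 0.026). The change of IFI44L exceeded that of IFI44 in 3 of 3 lines, by 0.85 in 92.1, 1.47 in Mel 270 and 1.28 in Mel 290. These differences rest on values of IFI44 under the filter level. With low values raised they lay between 1.12 and 3.16, with a mean of 1.87. They were not tested.

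**Figure D3:**
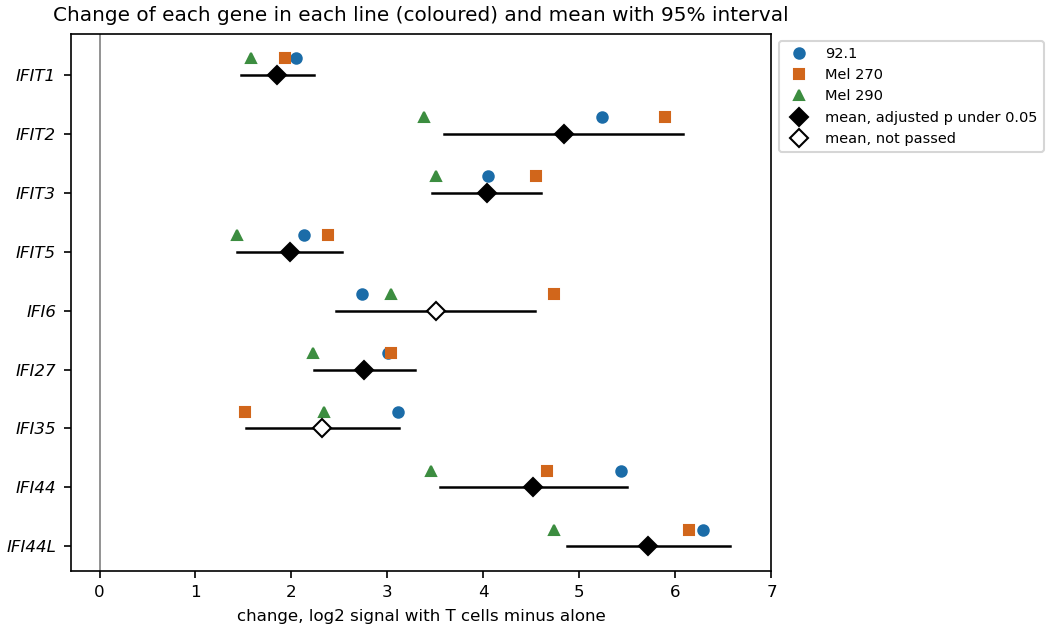
Change of each gene, log2 signal with T cells minus alone, with coloured points for the 3 lines and a diamond with a 95% interval for the mean in limma. Filled diamonds passed an adjusted p of 0.05 and the open diamonds of IFI6 and IFI35 did not, and Mel 290 (green triangles) has the lowest point for 7 of the 9 genes.

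Set side by side, most of the genes shared the line with the smallest change but not the line with the largest, which was Mel 270 for 5 genes and 92.1 for 4. The change was smallest in Mel 290 for 7 of 9 genes, and the exceptions were IFI6, smallest in 92.1, and IFI35, smallest in Mel 270. Among all tested genes 30.0% had their smallest change in Mel 290. With values under 5.80 raised to it the count was 6 of 9, since IFI44 then had its smallest change in 92.1 (2.49, against 3.65 in Mel 270 and 3.41 in Mel 290). The median change of the 9 genes was 3.11 in 92.1, 4.54 in Mel 270 and 3.04 in Mel 290, each from 1 array per condition. In these lines 3.63%, 5.29% and 2.07% of tested genes were at least 2-fold higher with T cells, and 0.898% were so in all 3 lines, as all 9 of the genes were. The co-culture level was highest in Mel 270 for 7 of 9 genes and in 92.1 for IFI27 and IFI44L. Alone, 6 of 9 genes were highest in Mel 290, some of them under the filter level. No share over all tested genes was taken for these 2 orders or for the line with the largest change. Those counts describe the 9 genes and do not set them apart from other genes. The range over the lines was narrower with T cells than alone for 5 of 9 genes (IFIT1, IFI6, IFI35, IFI44 and IFI44L), against 42.2% of tested genes, a share that sets the 9 genes little apart.

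The IFIT genes stand in one cluster on chromosome 10. IFIT1B, a paralog between IFIT3 and IFIT1, had 3.97, 4.08 and 4.56 in 92.1, Mel 270 and Mel 290 with T cells, against 4.14, 4.49 and 4.53 alone, under the filter level on all 6 arrays, where no change can be read. LIPA, which encodes lysosomal acid lipase, and PANK1, which encodes a pantothenate kinase, are the nearest tested genes outside the cluster. Their changes were 0.22 ± 0.58 and -0.51 ± 0.41, and neither passed (adjusted p = 0.69 and 0.23 in limma). On chromosome 14 IFI27 lies between its paralogs IFI27L1 and IFI27L2, whose changes were 0.06 ± 0.43 and -0.04 ± 0.43 (adjusted p = 0.92 and 0.94 in limma). Both were well above the filter level, with 7.82 to 8.71 for IFI27L1 and 8.79 to 9.76 for IFI27L2 in the co-cultures, against 7.95 to 8.50 for IFI27L1 and 8.55 to 9.76 for IFI27L2 alone. The change of IFI27 exceeded that of IFI27L1 by 2.70 ± 0.90 and that of IFI27L2 by 2.80 ± 0.76, in 3 of 3 lines each. Of all 10 nearest tested neighbours of the 9 genes none passed in limma in either direction (2 at an unadjusted p under 0.05), the median change was -0.22, and none had a mean change of 1 or more in size. Of 6 tested other genes with IFI names or close kin, IFI27L1 and IFI27L2 among them, none passed in limma either. Their median change was 1.21, with 4 at an unadjusted p under 0.05. The largest changes were those of IFIH1 (3.74 ± 1.48, adjusted p = 0.071 in limma) and IFI16 (2.87 ± 2.53, adjusted p = 0.19 in limma). Both were named after their values were seen.

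**Figure D4:**
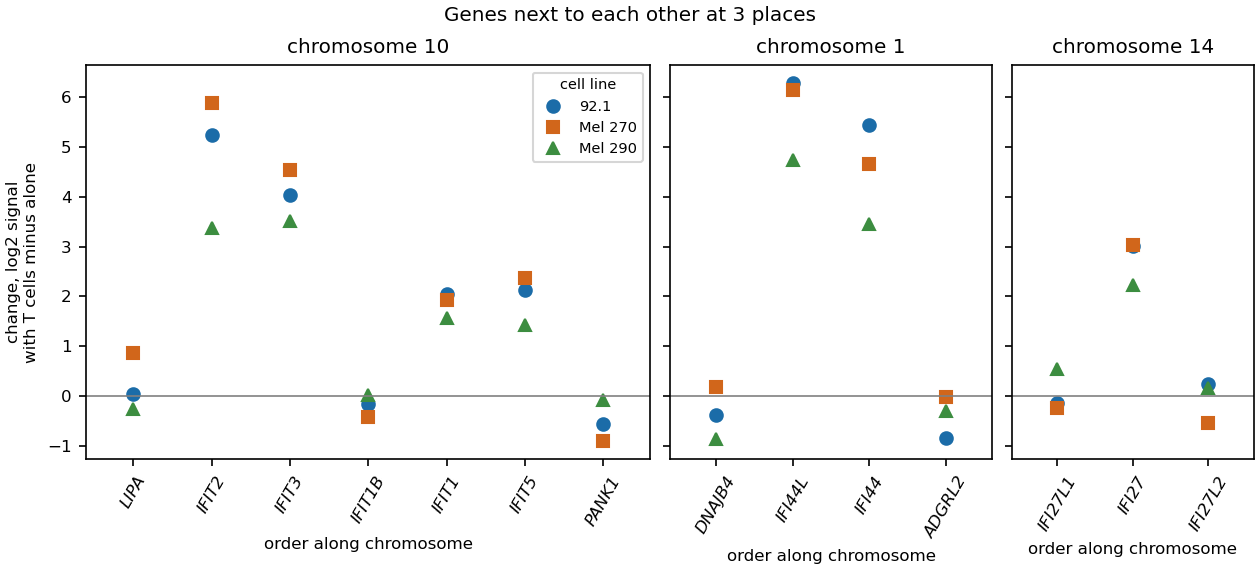
Change in each line, log2 signal with T cells minus alone, for genes in their order along chromosomes 10, 1 and 14, with the nearest tested genes on either side. IFIT1B, which lies under the filter level, LIPA, PANK1, DNAJB4, ADGRL2, IFI27L1 and IFI27L2 stay between -1 and 1, and the IFIT, IFI44 and IFI27 genes lie above 1 in each line.

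Of 15 tested signalling genes 2 rose at an adjusted p under 0.05 and none fell, with a median change of 0.82. Of the 15, 12 had an unadjusted p under 0.05 in limma. In all 3 lines 14 of them were higher with T cells, as were 16.2% of all tested genes. IRF1, a transcription factor of the interferon-gamma response, had 10.79, 10.68 and 10.96 in 92.1, Mel 270 and Mel 290 with T cells, against 5.56, 6.17 and 6.45 alone, and rose by 4.75 ± 0.42 (adjusted p = 0.0039 in limma). The kinase gene JAK2 rose by 2.07 ± 0.23 (adjusted p = 0.014 in limma). IRF9, the DNA-binding part of ISGF3, had a change of 1.60 ± 0.48 and did not pass (adjusted p = 0.067 in limma). IFNGR2 and IRF3 had the smallest changes, 0.30 ± 0.16 and 0.30 ± 0.32. Of the interferon genes themselves 16 had a probe set, and 13 of these, among them IFNB1 and IFNG, lay below the filter. Neither IFNL1 (-0.06 ± 0.31), IFNL2 (-0.09 ± 0.07) nor IFNL3 (-0.05 ± 0.30) passed in limma (0 at an unadjusted p under 0.05).

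Of 44 measured genes of the wider interferon-stimulated list 37 were tested. MX1, MX2, RSAD2, HERC5, HERC6, EPSTI1 and LAMP3 had means below the filter, with mean changes from 0.16 (EPSTI1) to 1.71 (RSAD2). Among the 37 tested genes 9 rose at an adjusted p under 0.05 and none fell, with a median change of 1.61. Of the 37, 31 had an unadjusted p under 0.05 in limma. The 5 with the highest change were IFITM1 (5.51 ± 0.73) and BST2 (5.19 ± 0.83), which block virus entry and release, TRIM22 (4.82 ± 0.69), SAMD9L (4.68 ± 0.79) and the oligoadenylate synthetase gene OAS2 (3.65 ± 0.85). Alone, BST2 and OAS2 lay under the filter level in all 3 lines and SAMD9L in 92.1 and Mel 290. TRIM22 lay under it in 92.1 and Mel 270, and IFITM1 in Mel 270. The means alone of BST2, OAS2, SAMD9L and TRIM22 were below 5.80 (4.97, 5.04, 5.32 and 5.57). These genes thus reached the filter only through their co-culture values. With low values raised their changes were 4.36, 2.89, 4.13 and 4.39. SAMD9L did not pass there (adjusted p = 0.068 in limma). Of the tested genes, ZBP1 (0.03 ± 0.20) and CMPK2 (0.21 ± 0.72) had the smallest changes in size. ISG15, a ubiquitin-like modifier often induced together with the IFIT genes, was named after its values were seen. ISG15 had 6.14, 7.11 and 6.84 in 92.1, Mel 270 and Mel 290 with T cells, against 6.26, 6.58 and 6.25 alone, with a change of 0.34 ± 0.40 (adjusted p = 0.40 in limma). The groups overlapped for ISG15 and did not for any of the 9 IFIT and IFI genes. In the list of genes typical of interferon-gamma 9 of 13 rose, with a median of 5.26 and IDO1 (7.51 ± 0.55) and the chemokine gene CXCL10 (9.11 ± 0.83) among them, whereas CIITA (0.31 ± 0.34) and WARS1 (2.58 ± 1.04) had the smallest changes and did not pass. Of the 13, 12 had an unadjusted p under 0.05 in limma. The 9 that rose all had a mean alone below 5.80, from 3.72 (CXCL10) to 5.70 (GBP3). They thus reached the filter only through their co-culture values. Alone, IDO1 and CXCL10 lay under the filter level in all 3 lines. With low values raised to it their changes were 5.77 and 7.03, the list's median was 4.38, and 9 genes of the list passed. The difference between the medians of these lists was not tested.

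**Figure D5:**
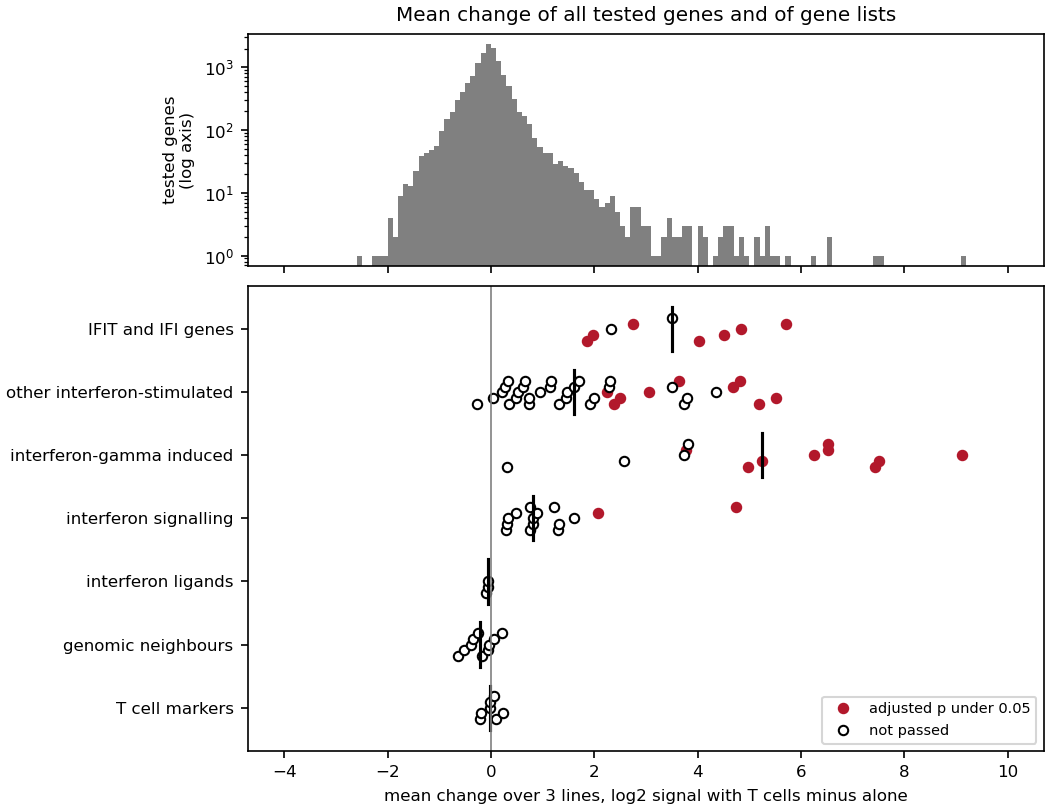
Mean change over the 3 lines, log2 signal with T cells minus alone, of all 13808 tested genes (upper panel, counts on a log axis) and of the genes of 7 lists (lower panel, bar at the median). Red points passed an adjusted p of 0.05 in limma, and the 9 IFIT and IFI genes lie between 1.85 and 5.72.

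The 5 tested genes whose pattern over the 6 arrays was most like the mean of the 9 genes were PLSCR1, TMUB2, APOL1, TAPBP and IL32, with Pearson's r from 0.995 to 0.998. PLSCR1, a phospholipid scramblase gene, rose by 2.50 ± 0.31, APOL1, of the apolipoprotein L family, by 3.88 ± 0.47, TAPBP, which helps load MHC class I, by 1.54 ± 0.27, and the cytokine gene IL32 by 4.16 ± 0.62. TMUB2 had a change of 0.60 ± 0.13 and did not pass (adjusted p = 0.10 in limma). Within the 9 genes the r of each with the mean of the other 8 was highest for IFIT3 (0.997) and lowest for IFI35 (0.849). These are descriptions over 6 arrays that fall into 2 groups and share 3 lines.

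The arrays had medians from 6.63 to 6.69. Over the tested genes Mel 270 alone correlated as closely with 92.1 alone (r = 0.879) as with its own co-culture (r = 0.878), and the other lines were closest to themselves. Melanocyte markers were high in 92.1 and Mel 270, but in Mel 290 MLANA, TYR and TYRP1 stayed under the filter level in both conditions, with at most 5.05 with T cells and 5.19 alone. The other 3 measured markers lay above it in Mel 290, with 8.16 with T cells and 8.96 alone for MITF, 7.25 and 6.84 for SOX10, and 5.97 and 6.10 for PMEL. None of the 6 passed in limma, and 2 had an unadjusted p under 0.05, MITF with a change of -1.23 ± 0.75 and TYR with -1.27 ± 1.01 (adjusted p = 0.12 and 0.17). T cell RNA was looked for with 17 markers, of which 16 had a probe set and 7 were tested. None passed in limma (0 at an unadjusted p under 0.05), and PRF1 and ZAP70 had the smallest changes (-0.02 ± 0.10 and -0.02 ± 0.05). CD3D, CD3E, CD3G, CD2 and PTPRC reached at most 5.70 in the co-cultures and 5.62 alone, under the filter level. IL2RG, on the same list and not tested for its low mean, had 4.80, 6.12 and 5.33 in 92.1, Mel 270 and Mel 290 with T cells, against 4.92, 5.02 and 4.96 alone, so that only the Mel 270 co-culture exceeded the filter level. The part of T cell RNA in the results was not tested. The sum of the log2 signals of the 16 markers was 89.7 to 94.0 with T cells and 90.1 to 93.1 alone. In bulk samples of this kind more cells that express a gene and more RNA per cell cannot be told apart.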

How the data were processed

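Total RNA of 3 uveal melanoma lines, each with T cells and alone, was measured on 6 Affymetrix arrays, whose precision is limited by their number. The deposited values are log2 signals made with Affymetrix Expression Console 1.2.0.20, per the submitters' processing notes. How background, summarization and normalization were handled is not stated there. Values were used as deposited.

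Of 33297 probe sets 19460 had 1 gene symbol in the array annotation, updated by gene ID with RefSeq (GRCh38.p14) for 19429. For a gene with several the probe set with the highest mean was kept. Genes with a mean at or above the 25th percentile, 5.80, were tested (13808 genes). limma 3.58.1 in R 4.3.3 (lmFit, eBayes) was fitted on all of them with cell line as a block, since each line is in both groups, with Benjamini-Hochberg adjustment and a threshold of 0.05, two-sided. This left 2 residual degrees of freedom and a prior of 3.10. The p-values measure the mean change against its spread over the 3 lines, and that spread is moderated by the prior shared by all tested genes. Alternatives were no block, leaving out each line, other filters, normalizations and priors, low values raised to 5.80, and every probe set.

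The genes, lists and alternatives were chosen with earlier results of these data known. The text names all 9 genes, and from each list up to 5 called genes with the largest change and up to 2 with the smallest change. It also names IRF9, neighbours with a mean change of at least 1 in size, and the 5 most alike genes. The genes of the wider interferon-stimulated list below the filter are named too. Where another gene was chosen after its values were seen, the text says so. Protein sequences were not used here.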

Additional observations from a re-analysis of the deposited data

Results flagged for a closer look

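DDX60L, a helicase gene of the wider interferon-stimulated list, had changes of opposite sign in 92.1 and Mel 270, by at least 2-fold each way. It had 9.38 in 92.1, 3.75 in Mel 270 and 8.67 in Mel 290 with T cells, against 6.82, 6.83 and 7.31 alone. The change was 2.56 in 92.1 and -3.08 in Mel 270, each from 1 array per condition, and the difference between lines was not tested. None of the 9 IFIT and IFI genes changed sign between lines. DDX60L was chosen after its values were seen.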

How the results depend on the processing

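No change of the 9 genes turned its sign under any of the 11 alternatives, and IFIT3 was the only one that passed under each. Of the 9 genes 7 passed with the cell line as a block, 1 with no replicate block and 4 after cyclic loess, and 4 to 9 with each line left out. Without 92.1 IFIT1, IFIT2 and IFIT5 were lost. Over all genes 57 rose with the block, 18 without it, and 47 to 76 with each line left out. The count of genes that fell was 5 with the block and 0 without it, 9 with the filter at the median, 3 after quantile normalization, 1 after cyclic loess and 8 with trend and robust priors, and 2 to 9 with each line left out. Without the block 1 signalling gene passed, against 2 with it (1 to 2 with each line left out), and 4 genes of the wider interferon-stimulated list, against 9 (9 to 13 with each line left out). Among other IFI-named genes and paralogs none passed, against 1 with low values raised and 0 to 1 with each line left out. IFI44 was not tested with the filter at the median. Signals near background limit the fold changes of IFIT2, IFI44 and IFI44L.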
